A study of Homo sapiens with 35 samples.

Results

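Interleukins and colony-stimulating factors are secreted proteins through which tumour cells address leukocytes, stroma and each other. Of the 62696 rows of the RNA-seq count table (62649 distinct gene identifiers), 9 genes were followed by name: the IL-1 family cytokines *IL1A* and *IL1B*, the IL-6 family cytokines *IL6*, *LIF* and *IL11*, the separate cytokines *IL15* and *IL32*, and the colony-stimulating factors *CSF1* and *CSF2*. The cells were U-87 MG, an established human glioblastoma line, in 4 groups of 3 RNA-seq libraries each. They were untreated CRISPR control cells, CRISPR control cells treated with TWEAK, and TWEAK-treated cells carrying either an *ETS1* knockdown (ETS1 KD) or an *NFKB2* knockdown (NFKB2 KD). TWEAK, a ligand of the TNF family, was given at 10 ng/ml for 48 h. All KD and control cells were made with lentiCRISPRv2, whether they were pools or clones is not given in the sources used here, and no untreated KD cells are among the samples. ChIP-seq peak lists from the same line, 2 libraries per group, covered p52 (the product of *NFKB2*), ETS1 and RNA polymerase II (RNA Pol II). RNA Pol II was profiled in the same 4 groups as the RNA, and ETS1 in untreated and TWEAK-treated control cells only. The p52 libraries came from these control cells and from TWEAK-treated ETS1 KD cells, kept apart by guide RNA, with none from NFKB2 KD cells. The guide of the RNA-seq and RNA Pol II KD libraries is not given in the sources used here. Their ETS1 KD cells may thus differ from those of the p52 libraries. A peak was counted for a gene where any part of it lay within 15 kb of a start site, and peaks over the gene were read separately.

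IL-1α and IL-1β share a receptor that activates NF-κB, and IL-1β is made as a precursor that inflammasome-activated caspase 1 cleaves. IL-6, LIF and IL-11 bind their own receptors and then a common chain, gp130 (*IL6ST*), which activates JAK kinases and STAT3. Non-canonical NF-κB, the arm that TWEAK engages through its receptor Fn14 (*TNFRSF12A*), turns on when p100 is processed to p52, which enters the nucleus with RELB. Several cytokine genes carry κB sites, the short sequences NF-κB dimers bind.

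RNA-seq libraries held 28384201 to 40192606 counts. The methods call the libraries of a group biological replicates without saying whether they came from separate cultures, and p-values measure the spread between these libraries. The targeted genes were lower in their KD cells. *ETS1* stood at 71.9, 73.1 and 87.6 CPM (counts per 1000000 counts, scaled by TMM) in TWEAK-treated control cells and at 28.2, 33.0 and 37.8 CPM in ETS1 KD cells (log2 fold change −1.23, adjusted p = 0.00112, edgeR). *NFKB2* stood at 235, 289 and 346 CPM in the former and at 75.6, 92.6 and 105 CPM in NFKB2 KD cells (−1.67, adjusted p = 0.00339, edgeR). Both transcripts were thus reduced in the KD cells and not absent. The mesenchymal glioma markers *VIM*, *CD44*, *NES* and *FN1* were abundant, whereas *SOX2*, of the same list of 5, had at most 2 counts in a library. Of 4 glial markers, 1 had enough counts to be tested. Its log2 fold change was 0.01 with TWEAK, −0.87 with ETS1 KD and 0.29 with NFKB2 KD, none of them called by edgeR. *GFAP* had at most 13 counts in a library, and *AQP4* was at 0 in the untreated and TWEAK-treated control libraries.

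TWEAK treatment raised 5 of the 9 cytokine genes, *IL32*, *IL1B*, *IL6*, *IL1A* and *LIF*, and lowered none. The changes ran from 2.14-fold for *LIF* to 14.85-fold for *IL32*. Over all 16879 genes tested, 1.55% were called higher at an adjusted p under 0.05. In 8 of the 9 genes every TWEAK-treated library lay above every untreated one, against 22.5% of all genes whose groups did not overlap in either direction. The median log2 fold change of the 9 genes was 1.10, beside 0.02 over all genes tested. The 9 genes were chosen with earlier results of these data known. Values over all genes, here and below, are therefore given for scale and not as a test of the set.

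*IL1B*, the inflammasome-processed IL-1, had 4.66, 4.89 and 4.25 CPM in untreated cells and 23.8, 18.9 and 29.0 CPM after TWEAK. The groups were far apart, and *IL1B* rose 5.20-fold (95% confidence interval 3.61 to 7.47; log2 fold change 2.38 ± 0.24 SE, n = 3 per group, adjusted p = 0.000249, edgeR). *IL1A*, whose product is active without cleavage and is often released from damaged cells, had 1.42, 1.75 and 1.59 CPM untreated and 3.37, 3.41 and 3.50 CPM treated. It rose 2.15-fold (1.10 ± 0.22, adjusted p = 0.0158, edgeR), with the treated libraries close together. The call was lost without any of 4 libraries, TWEAK-treated 2 or 3 or untreated 1 or 2, with adjusted p of 0.0544 to 0.0847.

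*IL6*, the founding gp130 cytokine and a driver of the acute-phase response, had 2.81, 2.74 and 2.69 CPM in untreated cells and 6.17, 4.88 and 6.83 CPM after TWEAK. The groups did not overlap, and *IL6* rose 2.17-fold (95% confidence interval 1.62 to 2.90; 1.12 ± 0.19, adjusted p = 0.00777, edgeR). Without the third TWEAK-treated library its adjusted p was 0.054. *LIF*, which signals through the LIF receptor and gp130, was the more abundant of the pair, with 47.5, 54.1 and 65.2 CPM untreated and 94.1, 115 and 148 CPM treated. It rose 2.14-fold (1.10 ± 0.20, adjusted p = 0.0104, edgeR), and without the third TWEAK-treated or the first or second untreated library its adjusted p was 0.0542 to 0.0606. *IL11*, the third gp130 cytokine, went from 5.04, 5.87 and 5.91 CPM to 6.53, 6.77 and 7.94 CPM. These libraries did not overlap, but the log2 fold change of 0.34 missed the threshold (adjusted p = 0.313, edgeR).

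*IL32*, a proinflammatory cytokine gene that mice lack, had 5, 3 and 7 counts in the untreated libraries, or 0.174, 0.0922 and 0.219 CPM. After TWEAK it had 1.94, 2.14 and 3.22 CPM, still low beside most of the other cytokines. The rise of 14.85-fold (95% confidence interval 8.78 to 25.1; 3.89 ± 0.35, adjusted p = 0.000126, edgeR) was the greatest among the 9 genes and started from few counts. *IL15*, which sustains natural killer and memory T cells, went from 7.54, 6.18 and 4.97 CPM to 8.72, 9.66 and 8.88 CPM. All treated libraries were higher, with a log2 fold change of 0.55 that did not pass in edgeR (adjusted p = 0.08) and passed in DESeq2 (adjusted p = 0.0256).

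The colony-stimulating factors differed in level and in spread. *CSF1*, the macrophage survival factor, had 137, 149 and 235 CPM untreated and 112, 197 and 217 CPM treated. These libraries overlapped fully, and the log2 fold change was 0.01 with a 95% confidence interval of −0.59 to 0.61 (adjusted p = 0.994, edgeR). *CSF2*, which encodes the granulocyte and macrophage factor GM-CSF, had 6, 9 and 4 counts untreated and 17, 33 and 93 counts treated, or 0.208, 0.277 and 0.125 CPM against 0.610, 0.821 and 2.58 CPM. Every treated library was higher, the third by a wide margin, and the log2 fold change of 2.71 (95% confidence interval 1.20 to 4.22) had an adjusted p of 0.0588 in edgeR and 0.00255 in DESeq2. Without the third treated library the log2 fold change of *CSF2* was 1.80 (adjusted p = 0.275, edgeR), and without the first TWEAK-treated or the second NFKB2 KD library its adjusted p was 0.0408 or 0.037.

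**Figure D1:**
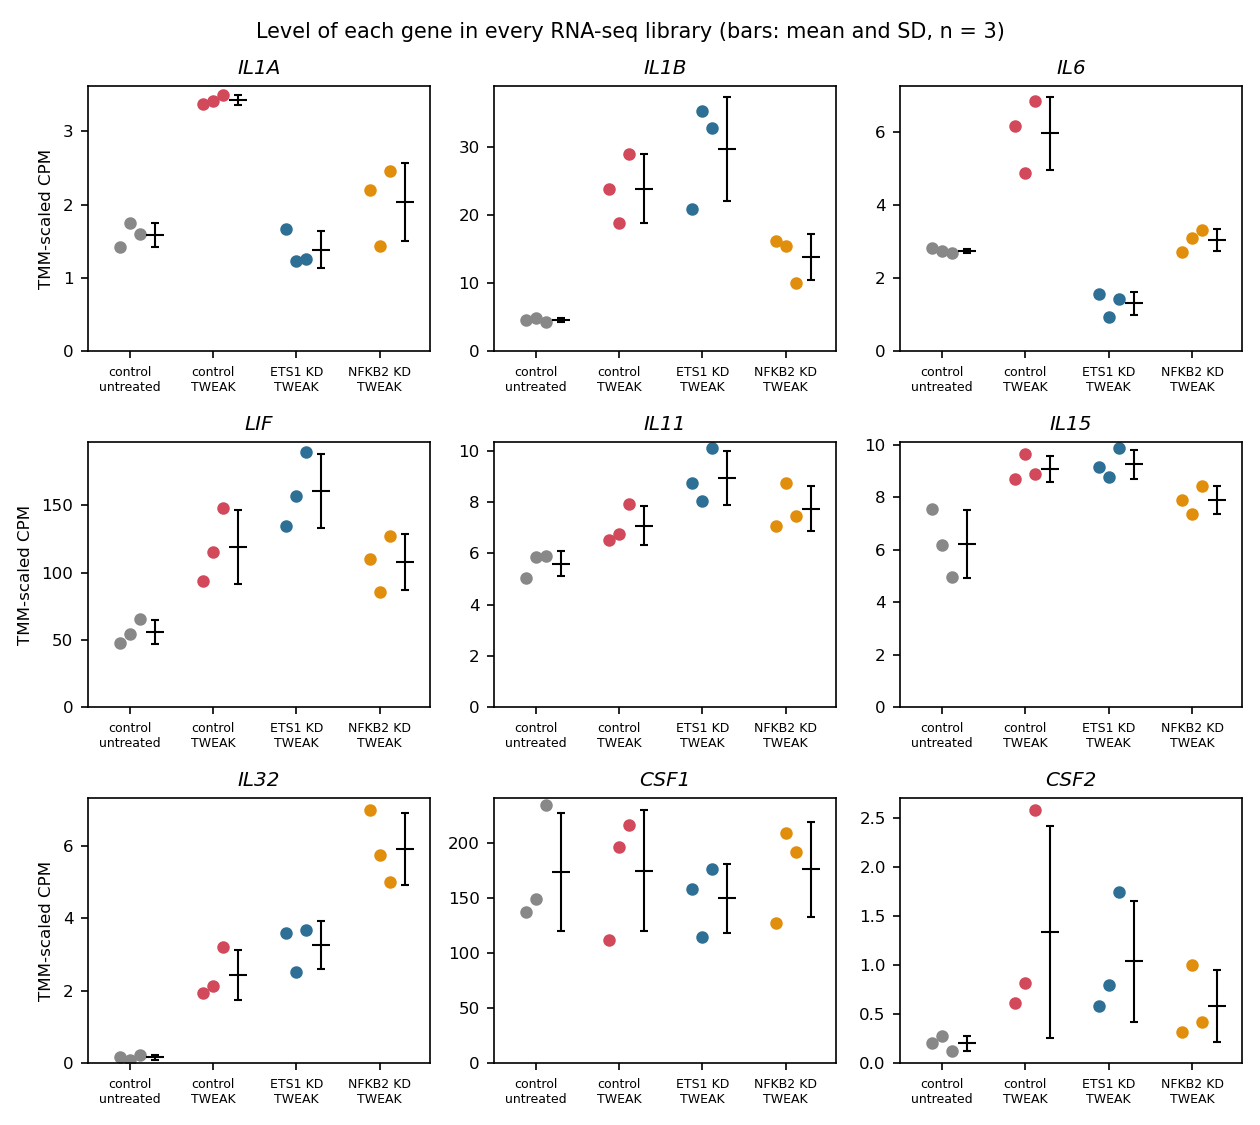
TMM-scaled CPM of the 9 cytokine genes in each of the 12 RNA-seq libraries by group, with 1 point per library, a linear axis of its own for each gene, and bars for the mean and SD. *IL1B*, *IL32*, *LIF*, *IL11* and *CSF2* stay above all untreated libraries in every TWEAK-treated group, whereas *IL6* in ETS1 KD cells, at 0.950 to 1.55 CPM, lies below all untreated libraries.

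Divided by exon length, the order of levels in TWEAK-treated control cells was *CSF1* (33.5 CPM per kb), *LIF* (30.8), *IL1B* (7.95), *IL11* (2.64), *IL1A* (1.70), *CSF2* (1.70), *IL6* (1.38), *IL15* (1.15) and *IL32* (0.758). *CSF1* and *LIF* did not differ beyond their SDs of 10.6 and 7.03 CPM per kb. In untreated cells the same scale gave 33.2 for *CSF1*, 14.4 for *LIF*, 1.53 for *IL1B* and 0.0503 for *IL32*. In a bulk culture, fewer cells expressing a gene and less RNA per cell cannot be told apart.

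The comparisons of TWEAK with no treatment, of ETS1 KD with control and of NFKB2 KD with control share the 3 TWEAK-treated control libraries, so their values are given side by side and not as independent results. ETS1 KD lowered 2 of the 9 genes, *IL6* and *IL1A*, and raised none. Of all genes tested, 1.13% were called lower. The libraries did not overlap for 3 of the 9, *IL6* and *IL1A* lower and *IL11* higher, against 20.3% of all genes in either direction.

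*IL6* in ETS1 KD cells had 1.55, 0.950 and 1.43 CPM, below the 4.88 to 6.83 CPM of TWEAK-treated control cells and also below the untreated libraries. It fell to 0.221 of the control level (log2 fold change −2.18 ± 0.20 SE, adjusted p = 0.00019, edgeR). Against untreated control cells the log2 fold change was −1.06 (adjusted p = 0.00524, edgeR). *IL6* overlaps the opposite-strand genes *STEAP1B* (608 to 1402 counts per library) and *IL6-AS1* (11 to 37 counts), and the strand setting of the counting is not given in the sources used here, so reads of these genes cannot be told apart. The same holds for *LIF* with *LIF-AS2* (3 to 32 counts) and *LIF-AS1* (0 to 2 counts).

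*IL1A* had 1.67, 1.23 and 1.26 CPM in ETS1 KD cells, all below the 3.37 to 3.50 CPM of the treated control. It fell to 0.405 of the control level (−1.30 ± 0.22, adjusted p = 0.00794, edgeR), with an adjusted p of 0.0623 without the third ETS1 KD library. Against untreated cells its log2 fold change was −0.20 (adjusted p = 0.637, edgeR).

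*IL1B*, the neighbour and close relative of *IL1A*, had 20.9, 35.2 and 32.8 CPM in ETS1 KD cells. These values overlapped the treated control (log2 fold change 0.31, 95% confidence interval −0.17 to 0.80, adjusted p = 0.698, edgeR). *LIF* stood at 135, 157 and 190 CPM, which overlapped the 94.1 to 148 CPM of the treated control (0.43, adjusted p = 0.409, edgeR).

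The remaining genes moved little with ETS1 KD. *IL32* had 3.61, 2.51 and 3.69 CPM against 1.94 to 3.22 CPM in the treated control (0.42, adjusted p = 0.573). *IL11* had 8.74, 8.03 and 10.1 CPM, all above the treated control (0.34, adjusted p = 0.372), and *IL15* had 9.15, 8.77 and 9.87 CPM (0.03). *CSF1* (159, 115 and 176 CPM) and *CSF2* (0.587, 0.797 and 1.74 CPM) overlapped the control, with log2 fold changes of −0.22 and −0.37.

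NFKB2 KD changed none of the 9 genes at an adjusted p under 0.05 by edgeR, a threshold that 0.0296% of all genes passed. At an unadjusted edgeR p of at most 0.05 with a 1.5-fold change there were 4, *IL6*, *IL1A* and *IL1B* lower and *IL32* higher. Of all genes, 0.989% passed that rule as lower and 1.26% as higher. DESeq2 called 2, *IL6* and *IL32*, a count without a share of all genes beside it. The libraries did not overlap for 5 of the 9 genes, *IL6*, *IL1A*, *IL1B* and *IL15* lower and *IL32* higher, against 6.87% of all genes.

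*IL6* had 2.72, 3.10 and 3.31 CPM in NFKB2 KD cells, below every treated control library and around the untreated ones. Its log2 fold change was −0.97 (95% confidence interval −1.38 to −0.55, adjusted p = 0.267, edgeR). *IL1A* had 2.20, 1.44 and 2.46 CPM (−0.75, adjusted p = 0.739), and *IL1B* had 16.2, 15.4 and 10.0 CPM (−0.78, adjusted p = 0.766). All 3 genes stood lower than the control in each library without passing the test.

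*IL32* went the other way, with 6.98, 5.74 and 5.02 CPM against at most 3.22 CPM in the treated control. Its log2 fold change was 1.28 (95% confidence interval 0.75 to 1.80), with an adjusted p of 0.194 in edgeR and 0.00151 in DESeq2. *LIF* had 110, 85.6 and 127 CPM, which overlapped the control (−0.15). *IL11*, *CSF1* and *CSF2* overlapped the control too, with log2 fold changes of 0.13, 0.01 and −1.19 (−0.27 for *CSF2* without the third TWEAK-treated library), and *IL15*, at 7.90, 7.37 and 8.45 CPM, lay just under it (−0.20).

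**Figure D2:**
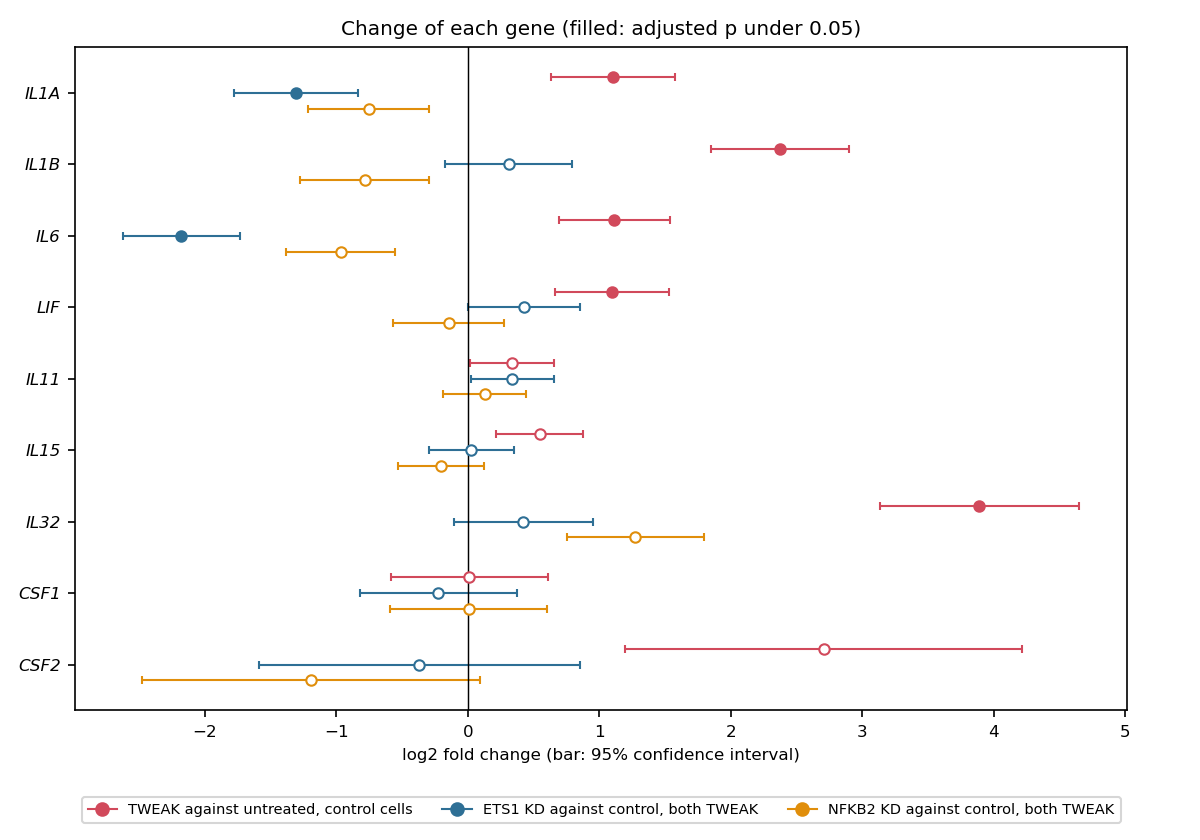
Log2 fold changes of the 9 cytokine genes with 95% confidence intervals for TWEAK treatment, ETS1 KD and NFKB2 KD, each from edgeR over 16879 genes, with filled points for an adjusted p under 0.05. *IL6* and *IL1A* lie above 0 for TWEAK and below 0 for ETS1 KD, and *IL32* lies above 0 for TWEAK and NFKB2 KD.

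The KDs were also compared with each other, in the same model over all 4 groups, so that the control libraries entered the estimate of the spread. *IL6* was lower in ETS1 KD than in NFKB2 KD cells (log2 fold change −1.21, adjusted p = 0.0104, edgeR) and *IL1B* was higher (1.09 ± 0.23, adjusted p = 0.0289, edgeR). These were 2 of 9 genes, against 1.94% of all genes called in either direction. Fitted on those groups alone, neither passed (adjusted p = 0.0644 and 0.0956). Both calls were lost without the third ETS1 KD library, and that of *IL1B* also without the second ETS1 KD, the second or the third NFKB2 KD, or the first or second untreated library (adjusted p of 0.0516 to 0.139). *IL32* had a log2 fold change of −0.85 (adjusted p = 0.093 in edgeR, 0.0248 in DESeq2 and 0.013 with no filter), *LIF* of 0.58 (adjusted p = 0.169) and *IL1A* of −0.55 (adjusted p = 0.249).

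Set against untreated control cells, TWEAK-treated ETS1 KD cells differed in 7 of the 9 genes, with *IL6* lower and *LIF*, *IL11*, *IL1B*, *IL15*, *IL32* and *CSF2* higher. In that comparison 13.8% of all genes were called. The log2 fold changes were 4.31 for *IL32*, 2.69 for *IL1B* (adjusted p = 4.15e-05), 1.53 for *LIF* (adjusted p = 0.000482) and 0.68 for *IL11* (adjusted p = 0.00947). Without the third ETS1 KD library *IL11*, *IL15* and *CSF2* were not called. The call of *IL11* was also lost without the first untreated library (adjusted p = 0.0601), that of *IL15* without the first or second ETS1 KD or the second or the third untreated library (adjusted p of 0.0508 to 0.0875), with no filter (0.0765), with only those groups fitted (0.0593) or when a 1.5-fold change was asked for, and that of *CSF2* without the second ETS1 KD, the third NFKB2 KD, the second TWEAK-treated or any untreated library (adjusted p of 0.0547 to 0.121). TWEAK-treated NFKB2 KD cells differed from untreated control cells in 2 genes, *IL1B* (1.59, adjusted p = 0.00782, or 0.0515 without the first untreated library) and *IL32* (5.17, adjusted p = 2.18e-05), against 0.604% of all genes. *LIF* had a log2 fold change of 0.95 there (adjusted p = 0.0559 in edgeR, 0.000848 in DESeq2 and 1.27e-06 with no filter) and *IL6* one of 0.15 (adjusted p = 0.987). Both comparisons change the genotype and the treatment at once and share the untreated libraries.

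Peaks of p52 appeared near several of these genes after TWEAK. No cytokine gene had a p52 peak within 15 kb of a start site in either untreated library, whose lists held 714 and 452 peaks, and 0.0948% of 20033 protein-coding genes had one in both. In both TWEAK-treated libraries, with 3579 and 11761 peaks, 3 of the 9 genes had one, *LIF*, *IL32* and *CSF1*, against 9.47% of protein-coding genes. The depth behind the peak lists is unknown, so fold enrichments over input are read within a library and not between conditions.

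The sequences under these summits are shown because each held a κB motif within 8 bp of the p52 summit. They are read from the hg38 plus strand. Capitals mark the κB motif, searched as GGGA, any 4 bases and CC on both strands, and in the *IL1A*–*IL1B* site also the ETS core AGGAAG on either strand. The *LIF* site (chr22:30250916-30250996) and the *IL1A*–*IL1B* site (chr2:112812080-112812160) overlap no annotated exon and hold the same 10 κB letters. The *IL32* stretch (chr16:3065294-3065323) overlaps a first exon of some *IL32* transcripts, the *CSF1* stretch (chr1:109910458-109910487) lies near the *CSF1* start, and the *CSF2* stretch (chr5:132073668-132073748) lies before the *CSF2* start.
LIF: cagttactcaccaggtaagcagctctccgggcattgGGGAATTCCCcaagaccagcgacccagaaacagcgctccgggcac
IL1A–IL1B: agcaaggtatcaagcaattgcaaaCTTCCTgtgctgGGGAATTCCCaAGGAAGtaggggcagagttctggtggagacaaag
IL32: cctgtactcaGGGAGTTTCCCcagccagct
CSF1: caggcctggaGGGAAAGTCCCttgggacga
CSF2: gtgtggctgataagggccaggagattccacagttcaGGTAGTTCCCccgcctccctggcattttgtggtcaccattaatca

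The motif lay 1 bp from the summit at *LIF*, 0 bp at *IL32*, 3 bp at *CSF1*, 8 bp at *CSF2* and 3 bp at the *IL1A*–*IL1B* site. There the printed AGGAAG matches lay 6 and 17 bp away. AGGAAG also lay 15 bp from the *IL32* summit and 69 bp from the *LIF* summit, not printed whole. In the 201 bases around each summit, the κB motif occurred in 73.6% of 3446 p52 peaks of the first TWEAK-treated library and in 77.6% of 11679 of the second, so its presence is common to p52 peaks. These shares are for any place in the 201 bases, and the share of peaks with a motif within 8 bp was not measured. AGGAAG occurred in 25.1% and 23.7% of the p52 peaks of those libraries, so it was not particular to the *IL1A*–*IL1B* site. A match is a description of letters, not a measured site.

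The *LIF* peak, 4197 and 4198 bp before the start (gene at chr22:30240453-30246759, minus strand), had a fold enrichment over input of 30.3 and 68.0. It ranked 68 of 3579 and 43 of 11761 peaks by q-value. The *CSF1* peak, 35 and 37 bp before the nearest annotated start and 378 and 380 bp before the main (MANE) start (gene at chr1:109910242-109930992, plus strand), reached 19.8 and 36.2, although *CSF1* RNA did not differ between these groups. The *IL32* peak, 1 and 4 bp before the nearest annotated start (gene at chr16:3065297-3082192, plus strand), reached 8.46 and 18.9.

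These sites kept peaks in most ETS1 KD libraries. With guide 1 the fold enrichments were 31.3 and 65.1 at *LIF* and 26.7 and 44.2 at *CSF1*, and with guide 2 they were 54.4 and 53.0 at *LIF* and 44.6 and 41.6 at *CSF1*. *IL32* had 12.1 in the second guide 1 library and 15.7 and 18.9 with guide 2. It had no peak in the first guide 1 library, which had the shortest TWEAK list, 1387 peaks. *LIF* and *CSF1* thus had a peak in all 6 TWEAK-treated p52 libraries, as did 3.85% of protein-coding genes, and their summits spanned 1 and 3 bp across them.

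**Figure D3:**
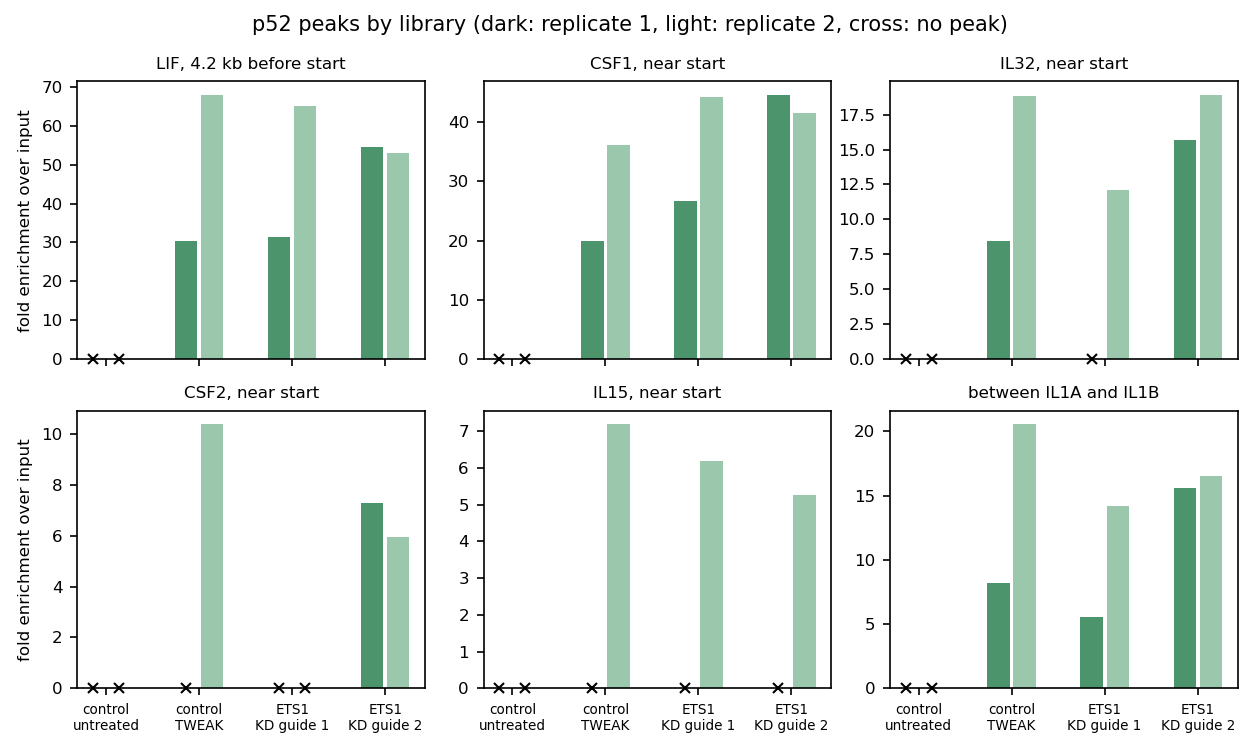
Fold enrichment over input of the p52 peak at each cytokine site in the 8 p52 ChIP-seq libraries, with 1 bar per library and a cross where there was no peak. *LIF* (30.3 to 68.0) and *CSF1* (19.8 to 44.6) have a peak in all 6 TWEAK-treated libraries and none in the untreated ones.

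Other p52 peaks were found in only 1 of the control libraries. The second TWEAK-treated library, with the longer list, alone had peaks 89 bp before the *CSF2* start (10.4, also 7.29 and 5.94 with guide 2), 38 bp past the main *IL15* start (7.19, also 6.20 in the second guide 1 and 5.27 in the second guide 2 library), 9330 bp before the *LIF* start (13.1) and 137 bp into *IL11* (3.03). Of the control libraries, only the second also had peaks 12720 bp past the *CSF2* start (4.90) and in intron 2 of *IL15* (7.19, also 5.20 in the second guide 2 library). The first TWEAK-treated library alone had a peak in intron 6 of *IL1A* (5.69). *IL6* (chr7:22725884-22732002, plus strand) and *IL1B* (chr2:112829751-112836816, minus strand) had no p52 peak within 15 kb in any library. For *IL6* the nearest summits lay 126 and 32.1 kb from its main start in the first and second TWEAK-treated libraries.

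Between *IL1A* and *IL1B*, outside the 15 kb window, lay a further p52 peak that was chosen after its values were seen. Its summit, at position 112812123 in the second TWEAK-treated library, was 27.6 kb before the *IL1A* start (gene at chr2:112773925-112784493, minus strand) and 24.7 kb past the *IL1B* start. Fold enrichment was 8.17 and 20.6 in TWEAK-treated control cells, 5.51 and 14.2 with ETS1 guide 1, and 15.6 and 16.5 with guide 2. No peak stood there in the untreated p52 or in any ETS1 library, and RNA Pol II had one in the first TWEAK-treated library (4.60). The AGGAAG letters in its sequence had no ETS1 peak over them in these libraries.

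None of the 9 had an ETS1 peak within 15 kb in both TWEAK-treated libraries (3570 and 3145 peaks), against 9.62% of protein-coding genes, a share at which few of 9 genes would be counted. Single peaks stood 15 bp into *IL11* in the second TWEAK-treated library (3.09) and 436 bp past the main *CSF1* start in the first untreated library (4.93). At *IL6* and *IL1A*, the genes that fell with ETS1 KD, no ETS1 peak was found within 15 kb in any of the 4 ETS1 libraries. The nearest ETS1 summit in the TWEAK-treated libraries lay 740.8 kb from the *IL6* start in each, and 757 and 141.5 kb from the *IL1A* start.

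In the promoter, taken from RefSeq (GRCh38.p14) as 250 bases before to 50 after the start, 6 of the 9 genes were found, and *LIF*, *IL15* and *CSF1* were not. The κB motif occurred in *IL6*, *IL32* and *CSF2*, 3 of 6, against 25.1% of 27305 promoters. The *IL6* promoter match (chr7:22727117-22727146, plus strand) is printed because it carries the κB letters of a gene that rose with TWEAK and had no p52 peak nearby.
IL6: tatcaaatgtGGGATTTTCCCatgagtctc

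It lay 73 to 63 bases before the start, and its capitals mark the overlapping matches of both strands. The AGGAAG core occurred in *IL32* and *CSF2* (33.7% of promoters), CTTCCGG in none of the 6 (10.7%), the AP-1 motif TGANTCA in *IL11* and *IL1A* (7.76%), and the CRE motif TGACGTCA in *IL32* (1.98%).

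The share of these genes with an RNA Pol II peak was near or below that of all genes. Both TWEAK-treated libraries had one within 15 kb of *IL6*, *LIF*, *IL11*, *IL1B* and *CSF1*, 5 of 9, against 54.4% of protein-coding genes. Both untreated libraries had one at *IL6*, *LIF* and *IL11*, 3 of 9, against 47.1%. The count was 4 in ETS1 KD cells (*LIF*, *IL11*, *IL1A* and *IL1B*; 48.7% of protein-coding genes) and 3 in NFKB2 KD cells (*LIF*, *IL11* and *CSF1*; 42.2%). In the second NFKB2 KD library *IL11* was counted only through the edge of a peak over *RPL28*, whose summit lay 15497 bp from the *IL11* start, and it had none there over the gene. *IL15*, *IL32* and *CSF2* had none in control cells.

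*IL1B* showed the widest contrast in RNA Pol II peak cover. Peaks covered 58.4% and 19.6% of the gene in TWEAK-treated control cells and 5.86% and 0% in untreated cells. In ETS1 KD cells they covered 45.1% and 60.8%, and in NFKB2 KD cells 19.4% and 0%. At its start, summits lay at +70 (fold 10.7) and −6 bp (7.40) in the TWEAK-treated libraries, where the untreated libraries had none.

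*IL6* was under RNA Pol II peaks over 53.6% and 22.9% of its length in untreated cells, 58.6% and 9.74% after TWEAK, 17.1% and 0% in ETS1 KD cells, and 20.8% and 0% in NFKB2 KD cells. The TWEAK-treated libraries did not stand apart from the untreated ones. *LIF* was covered over 89.0% and 92.4% in untreated and 100% and 94.8% in TWEAK-treated cells, near its full length in both. The lists held 11175 to 44672 peaks, the shortest being the second NFKB2 KD library, which also gave the lowest covers of *LIF* (42.5%) and *IL11* (0%). The part of list length in these differences was not tested.

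**Figure D4:**
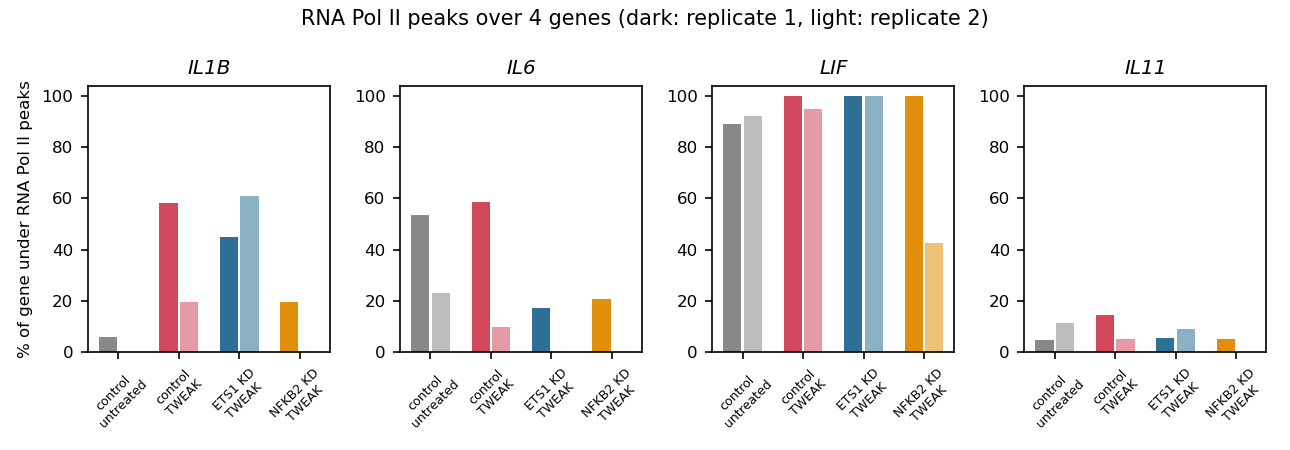
Share of the length of *IL1B*, *IL6*, *LIF* and *IL11* under RNA Pol II peaks (percent) in the 8 RNA Pol II ChIP-seq libraries, with 1 bar per library. *IL1B* goes from at most 5.86% in untreated cells to 19.6% and 58.4% after TWEAK, while *LIF* is covered nearly whole in both.

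Around the 9 genes, other members of the cytokine system were examined in lists chosen with earlier results of these data known. Of 17 further cytokine genes tested, TWEAK raised *IL24* (log2 fold change 1.44, from 7.33 to 19.9 CPM, adjusted p = 0.00051), *IL34*, a second ligand of the CSF1 receptor (4.14, from 0.212 to 3.81 CPM, adjusted p = 0.000888), and the IL-1 receptor antagonist *IL1RN* (1.15, from 6.0 to 13.3 CPM, adjusted p = 0.0191), and lowered none. ETS1 KD lowered *IL24* (−2.31, adjusted p = 3.17e-05), *IL36B* of the IL-1 family (−1.75, from 337 to 101 CPM, adjusted p = 0.000157) and *TSLP* (−0.91, adjusted p = 0.00172), and raised none. The inflammasome sensor *NLRP3* rose with TWEAK (1.70, adjusted p = 0.0196), alone among 8 genes of IL-1 processing and release. Of 16 signalling genes, *IRAK2*, a kinase of the IL-1 receptor pathway, rose (0.73, adjusted p = 0.00787).

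Receptors of these cytokines were read too. Of 9 tested, edgeR called 0 with TWEAK, against 3.08% of all genes in either direction. At an unadjusted p under 0.05 there were 4 and DESeq2 called 2, counts without a share of all genes beside them. The common chain *IL6ST* had a log2 fold change of 0.82 (adjusted p = 0.242). Of 14 κB response genes, 7 rose with TWEAK, among them *BIRC3* (5.71), *TRAF1* (3.06), *CXCL2* (2.04) and *CXCL8* (1.68). With ETS1 KD *CXCL2* fell (−1.40, adjusted p = 0.0109), and with NFKB2 KD *TRAF1* (−2.08, adjusted p = 0.0392) and *NFKB2* itself fell. The median log2 fold change with TWEAK was 0.93 over the κB response genes and −0.17 over the receptors.

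Immune cells also express these cytokines, so their markers were read in the same libraries. The 5 markers summed to 0.125 to 0.382 CPM in untreated and 1.17 to 1.80 CPM in TWEAK-treated control cells, 1.01 to 1.32 CPM in ETS1 KD and 1.59 to 2.28 CPM in NFKB2 KD cells. Without *ITGAM*, an integrin gene that went from 1, 1 and 0 to 22, 40 and 54 counts with TWEAK (5.46, adjusted p = 0.000193), the control sums were 0.125 to 0.348 and 0.174 to 0.574 CPM. *PTPRC* and *AIF1* were at or near 0, and *CD3E* had no count in the control libraries. Not all of the others were absent, since 2 of the 5 markers, *ITGAM* among them, had enough counts to be tested. The 4 markers other than *ITGAM* reached at most 8 counts in an untreated and 14 in a TWEAK-treated control library.

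By a fixed measure, the root mean square distance over the 3 differences of group means of log2 CPM from untreated cells, the genes most like *IL32* among 12077 were *PI3* (1.53), *TNIP3* (1.74) and *BIRC3* (1.75). They did not share its order of groups. The difference of *IL32* was greater in NFKB2 KD (4.79) than in TWEAK-treated control cells (3.505). It was smaller for *TNIP3* (1.97 and 2.87) and *BIRC3* (3.84 and 5.75), and about level for *PI3* (2.55 and 2.54). Those most like *IL6*, which had the lowest p of the 9 genes in ETS1 KD, were *AKNA* (0.249), *RPLP0P2* (0.255) and ENSG00000274213 (0.320). These distances rest on 12 libraries in 4 groups. No gene followed *IL32* as closely as *AKNA* followed *IL6*. The distance is not scaled to the size of the differences, which were larger for *IL32* (3.505 to 4.79) than for *IL6* (−1.06 to 1.09).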

How the data were processed

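The authors trimmed RNA-seq reads with Trimmomatic, aligned them with STAR and deposited raw counts per gene from featureCounts on hg38. ChIP-seq reads were trimmed, aligned with Bowtie2, called with MACS2 against input and cleared of blacklisted regions with bedtools. Per the labels and file layout, the deposited peak lists give a score, fold enrichment (a ratio to input), and −log10 p and q for each library. Versions, the annotation release and the strand setting are not given in the sources used here. The depth of the peak lists is unknown.

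All 9 genes were members by name, and the members and gene lists were chosen with earlier results of these data known. The table held 62696 rows, every one a gene, with 62649 Ensembl identifiers, of which 62625 were in GENCODE 44. Its 12 columns held 28384201 to 40192606 counts. Genes were kept by filterByExpr (16879), scaled by TMM and tested with edgeR 4.0.16 (quasi-likelihood, R 4.3.3, limma 3.58.1) in 1 model over the 4 groups, with Benjamini-Hochberg adjustment over all genes and a threshold of 0.05. The steps were first tested on simulated data. DESeq2 1.42.0, RLE scaling, no filter, a replicate block, the compared groups alone, each library left out, and p at most 0.05 with a 1.5-fold change were alternatives. CPM values are TMM-scaled, and CPM per kb is per length of the union of exons. A peak was counted where any base of it lay within 15 kb of a GENCODE 44 start site, so a summit can lie slightly farther off, with a 5 kb window, −log10 q of at least 5 and a peak in either library as alternatives. All 9 genes are named. Of the other lists, genes passing the test may be named. One immune marker of the planned list is not reported here. Likeness was the distance given with its values, for genes of mean log2 CPM at least 1. The 3 genes closest to the member of lowest p for TWEAK and for ETS1 KD are named.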

Additional observations from a re-analysis of the deposited data

How the results depend on the processing

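Counts of called genes kept within 1.5 times of the values above under the other settings, with these exceptions, whose cause was not tested. For NFKB2 KD the count of 0 became 2 with DESeq2, 3 with no filter and 4 at p at most 0.05 with a 1.5-fold change. For ETS1 KD against NFKB2 KD the count of 2 became 4 with no filter and 0 with only those groups fitted. Counting a peak in either TWEAK-treated library gave 7 genes for p52 and 1 for ETS1. Leaving out 1 library at a time, the counts ran from 2 to 6 for TWEAK, 1 to 2 for ETS1 KD, 0 to 0 for NFKB2 KD, 0 to 2 between the KDs, 4 to 7 and 1 to 3 for ETS1 KD and NFKB2 KD against untreated cells, and for peaks 4 to 6 for p52, 0 to 1 for ETS1, 5 to 6 for RNA Pol II within 15 kb and 5 to 6 over the gene. Without a filter *CSF1* turned to −0.026 for TWEAK. With 1 library left out the sign turned for *CSF1* (TWEAK −0.17 to 0.30; NFKB2 KD −0.23 to 0.22; ETS1 KD against untreated −0.37 to 0.061; NFKB2 KD against untreated −0.12 to 0.32), *CSF2* in ETS1 KD (−0.96 to 0.53), *IL15* in ETS1 KD (−0.021 to 0.063) and *LIF* in NFKB2 KD (−0.29 to 0.061), none of them called.

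Replicate numbers did not pair the libraries throughout: 9 of 18 same-numbered pairs correlated above 0.1 (−0.30 to 0.49), and 7 of 12 libraries correlated best with their own number. Pairs of different number ran from −0.56 to 0.488, so some libraries of different groups shared deviations whatever their number. The main model had no replicate block. With the replicate block, 6 genes were called for TWEAK (*CSF2* added), 2 for ETS1 KD, 0 for NFKB2 KD, 2 between the KDs (*IL6* and *LIF*, with *IL1B* at an adjusted p of 0.0516), and 7 and 3 for the KDs against untreated cells.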
